A study of Mus musculus with 5 samples.

Results

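The genes described here encode proteins of the mitochondrial ribosome. They are every gene listed in both deposited tables whose symbol is Mrpl or Mrps followed by a number and at most 1 letter, a rule that uses no expression value. This gave 77 of 24421 genes, 48 with an Mrpl symbol (large subunit) and 29 with an Mrps symbol (small subunit). RNA was sequenced from 5 mouse cultures, 1 library each. MEFs were embryonic fibroblasts grown from CF-1 embryos and used at an early passage. iPSCs were a purchased line of somatic cells reprogrammed to pluripotency, and mESCs were the embryonic stem cell line V6.5 without treatment. The NTC library came from V6.5 cells stably carrying a non-targeting control shRNA in a pLKO vector, and the shGldc library from V6.5 cells stably carrying an shRNA against Gldc, the glycine decarboxylase of the mitochondrial glycine cleavage system. The deposited shGldc values are headed sh3, a number the study's list of Gldc shRNAs does not hold, so which hairpin they come from is not given in the sources used here. The labels give culture without feeder cells, in a serum-replacement medium, for the pluripotent cells, while the study's methods also describe culture on feeder cells in serum and do not say which was used for these libraries. The study asked how pluripotent cells differ from fibroblasts in metabolic gene expression and what the loss of Gldc does to them. With 1 library per group there is no replicate error, no test, and no p-value, and every difference below is a difference between libraries.

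Mitochondria translate a handful of messenger RNAs of their own, all for subunits of the respiratory chain and the ATP synthase, on a ribosome that is distinct from the cytosolic one. Its ribosomal RNAs come from mitochondrial DNA, but its proteins are encoded in the nucleus, made in the cytosol, and imported. The small subunit binds the messenger RNA and decodes it. The large subunit joins the amino acids and sends the chain through an exit tunnel towards the inner membrane. Some of the proteins descend from bacterial ribosomal proteins and others were added in the course of mitochondrial evolution.

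By the uniform naming of ribosomal proteins, 46 of the 77 genes encode homologues of bacterial proteins and 30 encode proteins specific to mitochondria. The remaining gene, Mrps36, carries a small-subunit symbol, but its product is now known as a part of the oxoglutarate dehydrogenase complex. Mrps30 and Mrps18a also carry small-subunit symbols, although their products sit in the large subunit. Placed by structure, 50 genes belong to the large subunit and 26 to the small one. In the mm10 annotation, chromosome 11 held 10 of the genes, chromosome 17 held 8, and chromosome 6 held 7.

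The libraries matched their labels on the markers tested. The shGldc library held 2.07 FPKM of Gldc against 74.7 in NTC, 2.77% of the control. The summed FPKM of 10 pluripotency markers was 25.5 in MEFs and between 3808 and 7167 in the other libraries, and that of 10 fibroblast markers was 11580 in MEFs and between 92.6 and 277.5 elsewhere. The MEF library also held RNA of macrophages, with 8 of 9 macrophage markers at an FPKM of 1 or more and a sum of 306.3 against 11.4 to 21.9 in the other libraries. In mESCs, 9 of the 10 fibroblast markers reached an FPKM of 1, against 4 or 5 in iPSCs, NTC, and shGldc. The depth read from the steps between low FPKM values ranged from about 22100000 fragments in iPSCs to 29100000 in NTC, and the depths of NTC and shGldc (28900000) are uncertain by a factor of 2.

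All 77 genes were expressed in all 5 libraries. FPKM is the number of fragments a gene received divided by its transcript length and by the depth of the library. Levels of different genes can be compared only as far as the transcript length used for each gene is right. The lowest value of any gene was 2.68 FPKM (Mrpl1 in MEFs) and the highest 336.03 FPKM (Mrpl12 in shGldc). The median level of the 77 genes was 32.7 FPKM in MEFs, 48.8 in iPSCs, 50.5 in mESCs, 51.9 in NTC, and 58.7 in shGldc. MEFs thus had the lowest median, and the 4 pluripotent libraries lay close together above it. In each library the median member stood above most expressed genes, at the 79.0th percentile of genes with an FPKM of 1 or more in MEFs and between the 84.3rd and the 85.7th in the other 4. MEFs held the lowest of the 5 values for 58 of the 77 genes (75.3%), against 49.6% of the 7665 genes in the same range of mean FPKM, and shGldc the highest for 32 (41.6%), against 19.3%. These ranks set values of both tables side by side.

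The 2 subunits were expressed at the same general level. The median large-subunit gene stood at 32.0 FPKM and the median small-subunit gene at 32.7 in MEFs, a ratio of 0.979. This ratio was 1.06 in iPSCs, 0.886 in mESCs, 0.966 in NTC, and 1.06 in shGldc, so by symbol neither subunit was ahead in every library. Placed by structure, the ratio was 1.14 in MEFs, 1.104 in iPSCs, 1.03 in mESCs, 1.02 in NTC, and 1.13 in shGldc, above 1 in all 5, so the order depends on where Mrps30, Mrps18a, and Mrps36 are counted. Together the 77 genes held 0.652% of the summed FPKM in MEFs, 0.790% in iPSCs, 0.860% in mESCs, 0.983% in NTC, and 1.04% in shGldc. Large-subunit genes took between 63.1% and 64.9% of that amount in every library. The division between the subunits therefore varied by less than 2 percentage points, while the share of the whole ranged from 0.652% to 1.04%. The share does not depend on how a library was scaled. It was lowest in MEFs, but it also differed between mESCs (0.860%) and NTC (0.983%), libraries of the same cell line.

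**Figure D1:**
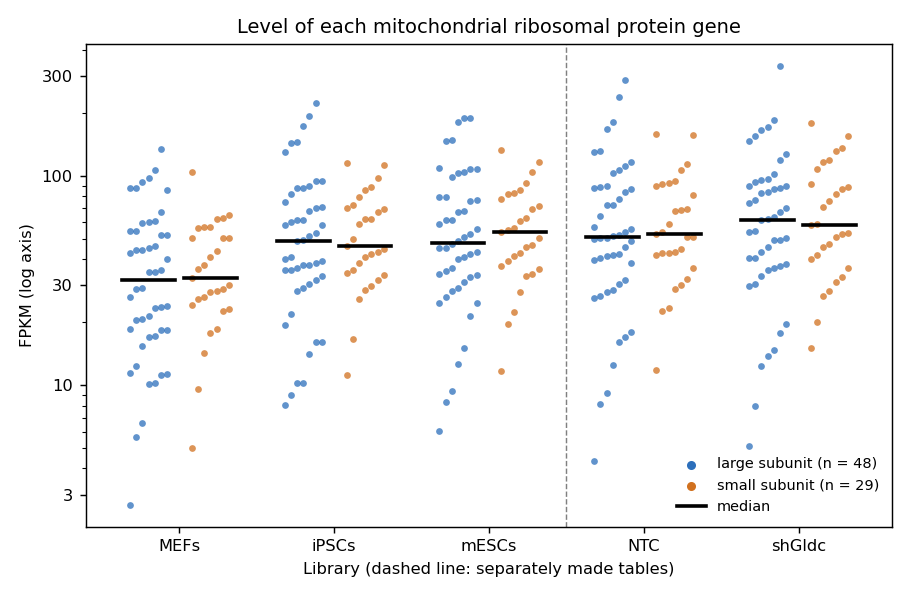
FPKM of each of the 77 genes (log axis) in the 5 libraries, with 1 point per gene, large-subunit genes in blue, small-subunit genes in orange, and a black bar at the median of each subunit. The medians of both subunits were near 32 in MEFs and between 46.4 and 61.8 in the other libraries, and within each library single genes spread over a range of 27.8-fold to 66.4-fold.

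Within a library the genes differed widely from each other. The ratio of the highest to the lowest member was 50.4 in MEFs, 27.8 in iPSCs, 31.4 in mESCs, 66.4 in NTC, and 65.5 in shGldc, although the ribosome holds most of these proteins in 1 copy. The 10 most abundant members carried between 30.3% and 32.5% of the members' summed FPKM. The order of the genes was largely kept between libraries, with Spearman coefficients over the 77 genes of 0.964 between NTC and shGldc, 0.935 between mESCs and NTC, 0.897 between iPSCs and mESCs, and 0.778 between MEFs and iPSCs, the lowest of the 10 pairs. These coefficients are descriptions, since the genes of 1 library share its depth and RNA.

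A few genes sat at the ends of the range in all libraries. Mrpl12, Mrpl2, and Mrpl28 were among the 10 highest members everywhere. Mrpl12 is the protein of the flexible stalk that recruits translation factors, and its level was 107.4 FPKM in MEFs, 224.5 in iPSCs, 189.6 in mESCs, 288.3 in NTC, and 336.03 in shGldc. It is also the only stalk protein that ribosomes hold in several copies. The other stalk genes were lower, with Mrpl10 between 44.2 and 96.7 FPKM and Mrpl11 between 10.2 and 35.7. Mrpl2, whose product lies near the peptidyl transferase centre, had 87.6 FPKM in MEFs, 193.6 in iPSCs, 190.4 in mESCs, 168.5 in NTC, and 184.7 in shGldc. MEFs held the lowest value of both genes.

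At the other end, Mrpl1, Mrpl19, Mrpl35, Mrpl41, Mrpl47, Mrpl50, and Mrps25 were among the 10 lowest members in every library. Their mean annotated coding transcripts measure 6073 nt for Mrps25, 5000 for Mrpl19, 3721 for Mrpl35, and 3364 for Mrpl47. They measure 2846 nt for Mrpl1, 2114 for Mrpl50, and 588.5 for Mrpl41. By estimated fragments, Mrpl41 was the lowest member in every library. The part of transcript length in these places was not tested. Mrpl1, the homologue of the bacterial L1 protein, had 2.68 FPKM in MEFs, 8.08 in iPSCs, 6.06 in mESCs, 4.34 in NTC, and 5.13 in shGldc, the lowest member in each. Mrps25 was the lowest small-subunit gene in each library, between 4.998 and 14.999 FPKM, but its level is uncertain, because other genes, above all Nr2c2, share 68.2% of its 50-nt stretches. Other genes also share 37.0% of those of Mrpl19, 23.3% of those of Mrpl47, and 11.3% of those of Mrpl41, so these levels are less certain too. In small-subunit genes the top places changed between libraries. They were held by Mrps6 in MEFs (104.6 FPKM), Mrps18b in iPSCs (115.9), Mrps24 in mESCs (133.9), Mrps12 in NTC (158.7), and Mrps24 in shGldc (178.7). In MEFs the highest member of all was Mrpl52, a large-subunit protein specific to mitochondria, at 135.1 FPKM. Its mean coding transcript measures only 386 nt, and by estimated fragments the highest member in MEFs was Mrps26.

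What the genes share upstream of their start was read from reference promoters, 300-base windows from 250 bases before to 50 bases after the start (RefSeq, GRCm38.p6, the assembly called mm10), which were given for 68 of the 77 genes. No window was given for Mrpl13, Mrpl15, Mrpl19, Mrpl38, Mrpl4, Mrpl54, Mrps28, Mrps34, and Mrps35. NRF1, the ETS factor GABP, and YY1 are transcription factors known for binding promoters of nuclear genes for mitochondrial proteins. Exact matches on either strand were counted for GCGCATGC as a core of the NRF1 site, for CCGGAAG as an ETS site, and for AAGATGGC as a YY1 site. These strings do not contain one another, but the NRF1 core can overlap its own reverse complement. The windows of the genes the later sections turn on are printed below, in lower case with these matches in capitals. They are Mrps31, the member furthest above MEFs, Mrps6, the member furthest below, Mrps7, the member highest in shGldc relative to mESCs, Mrpl32, the member with the most matches, the S18 homologue Mrps18a, and the neighbours Mrps11 and Mrpl46.
Mrps31 (chr8:22411090-22411389, plus strand): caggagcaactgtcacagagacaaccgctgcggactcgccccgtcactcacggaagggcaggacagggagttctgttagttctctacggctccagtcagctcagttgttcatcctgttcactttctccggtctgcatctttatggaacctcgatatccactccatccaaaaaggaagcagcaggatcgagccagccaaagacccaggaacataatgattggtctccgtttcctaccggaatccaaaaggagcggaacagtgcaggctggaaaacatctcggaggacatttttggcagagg
Mrps6 (chr16:92058086-92058385, plus strand): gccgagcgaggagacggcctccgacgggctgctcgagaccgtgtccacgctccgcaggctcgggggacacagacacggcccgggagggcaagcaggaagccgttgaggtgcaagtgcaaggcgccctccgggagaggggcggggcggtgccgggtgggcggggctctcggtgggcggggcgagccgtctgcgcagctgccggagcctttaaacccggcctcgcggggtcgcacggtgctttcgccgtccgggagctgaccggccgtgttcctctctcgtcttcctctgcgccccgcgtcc
Mrps7 (chr11:115603890-115604189, plus strand): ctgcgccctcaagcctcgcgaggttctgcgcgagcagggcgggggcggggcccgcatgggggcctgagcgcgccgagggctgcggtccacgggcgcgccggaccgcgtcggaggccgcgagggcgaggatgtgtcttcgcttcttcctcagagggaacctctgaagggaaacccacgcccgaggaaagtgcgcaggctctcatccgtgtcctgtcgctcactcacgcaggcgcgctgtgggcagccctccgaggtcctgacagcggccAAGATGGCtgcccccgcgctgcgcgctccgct
Mrpl32 (chr13:14612988-14613287, minus strand): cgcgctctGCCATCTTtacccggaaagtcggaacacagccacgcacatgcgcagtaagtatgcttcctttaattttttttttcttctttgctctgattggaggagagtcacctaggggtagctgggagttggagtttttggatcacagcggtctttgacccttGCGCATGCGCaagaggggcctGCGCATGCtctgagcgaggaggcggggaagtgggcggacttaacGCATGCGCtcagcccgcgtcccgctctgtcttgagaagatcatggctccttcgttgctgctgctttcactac
Mrps18a (chr17:46110754-46111053, plus strand): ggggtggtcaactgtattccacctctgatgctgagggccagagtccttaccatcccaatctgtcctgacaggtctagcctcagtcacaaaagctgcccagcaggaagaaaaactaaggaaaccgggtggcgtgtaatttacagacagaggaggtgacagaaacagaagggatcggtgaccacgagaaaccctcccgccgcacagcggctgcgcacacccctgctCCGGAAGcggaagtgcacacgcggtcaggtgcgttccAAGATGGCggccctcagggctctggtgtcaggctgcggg
Mrps11 (chr7:78782881-78783180, plus strand): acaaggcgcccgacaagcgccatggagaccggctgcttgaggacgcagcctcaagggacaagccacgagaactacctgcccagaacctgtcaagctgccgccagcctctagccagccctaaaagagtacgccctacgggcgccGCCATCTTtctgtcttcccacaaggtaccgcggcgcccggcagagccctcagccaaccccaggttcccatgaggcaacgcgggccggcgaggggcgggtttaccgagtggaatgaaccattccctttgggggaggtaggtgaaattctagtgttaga
Mrpl46 (chr7:78783040-78783339, minus strand): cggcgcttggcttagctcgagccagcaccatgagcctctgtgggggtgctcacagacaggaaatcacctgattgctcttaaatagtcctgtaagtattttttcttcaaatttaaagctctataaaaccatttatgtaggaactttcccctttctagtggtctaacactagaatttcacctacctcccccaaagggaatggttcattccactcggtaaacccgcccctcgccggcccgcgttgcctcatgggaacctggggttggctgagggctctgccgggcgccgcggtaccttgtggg

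The ETS string was found in the windows of 25 of the 68 genes (36.8%), against 12.8% of the 17220 genes with a window and 19.3% of the 10149 of these that reached an FPKM of 1 in any library. The YY1 string was found in 12 (17.6%), against 3.63% and 5.09%, and the NRF1 core in 8 (11.8%), against 4.001% and 5.91%. At least 1 of the 3 strings was present in 37 windows (54.4%), against 18.6% of all windows. The latter share was not computed for expressed genes alone, in which each single string was more frequent. The windows of Mrps31 and Mrps6, the genes at the top and bottom of the ratios over MEFs, held none of them. That of Mrpl32 held the NRF1 core 4 times, 2 of these overlapping, and the YY1 string once. The window of Mrps18a held an ETS and a YY1 match, and that of Mrps7 a YY1 match just after the start.

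Motifs of other kinds were about as frequent as elsewhere or less so. CACGTG, the E-box bound by Myc, occurred in 7.35% of the members' windows, against 9.17% of all windows and 11.9% of windows of expressed genes. The string CCAAT occurred in 39.7%, against 41.99% and 43.05%. The GC box GGGCGG occurred in 34 of the 68, against 49.6% and 69.6%, and TATAAA in 7.35%, against 14.2% and 8.72%. A match says only that these letters stand in the window. For iPSCs over MEFs the median log2 ratio of members with and without a match was 0.51 and 0.88 for the ETS string, 0.57 and 0.72 for the NRF1 core, and 0.70 and 0.66 for the YY1 string. For shGldc over NTC the medians were 0.19 and 0.15 for ETS, 0.17 and 0.17 for NRF1, and 0.047 and 0.19 for YY1, so no string went with higher ratios in both comparisons.

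**Figure D2:**
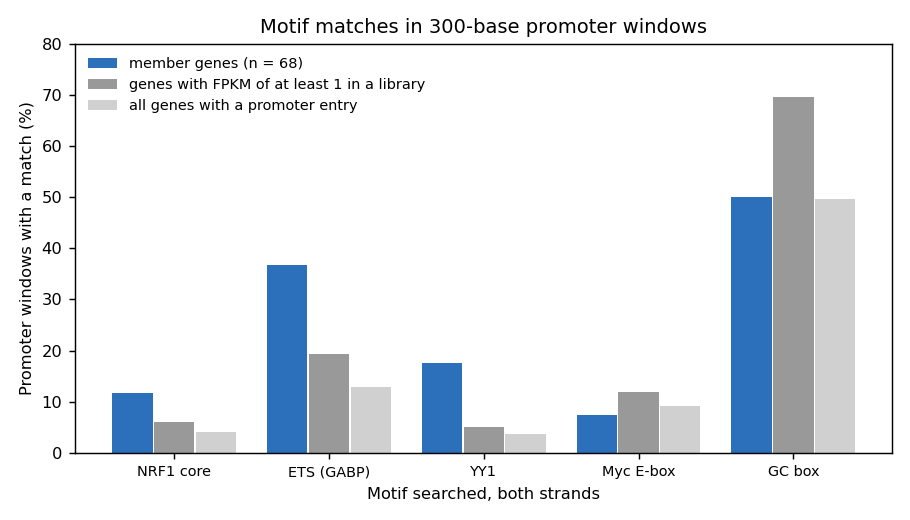
Share of promoter windows (%) with an exact match on either strand for 5 of the 7 motifs, for the 68 member genes (blue), for genes reaching an FPKM of 1 in any library (dark grey), and for all genes with a window (light grey). The ETS, YY1, and NRF1 bars of the members stand at 36.8%, 17.6%, and 11.8%, above both grey bars, whereas the E-box and GC box bars stand below the dark grey ones.

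Many of the genes start next to a gene on the opposite strand. A protein-coding partner starting upstream within 1000 bases on the other strand was annotated for 18 of the 77 genes (23.4%), against 7.02% of 19902 protein-coding genes. That background includes genes not expressed here, and the share among expressed genes was not computed. Of these pairs, 2 are given as examples, chosen after their values were seen. Mrps34 had a log2 ratio of 0.77 for iPSCs over MEFs and its partner Eme2 -2.83, but the level of Mrps34 is uncertain too, because other genes share 71.8% of its 50-nt stretches. Mrpl50 had 0.30 and its partner Zfp189 0.44 for iPSCs over MEFs, whereas they had -0.10 and 0.84 for iPSCs over mESCs and -0.29 and 1.98 for shGldc over NTC. Zfp189 was low throughout, at most 1.34 FPKM, and with less than 1 FPKM in both MEFs and mESCs it has no ratio between them. Mrpl46 and Mrps11 also start on opposite strands next to each other, 1 from each subunit, but are not counted among the 18 because the genes overlap. Their starts on chromosome 7 lie 42 bases apart, and the windows printed above overlap by 141 bases on opposite strands. Mrpl46 had 18.3 FPKM in MEFs, 39.1 in iPSCs, 32.9 in mESCs, 38.4 in NTC, and 54.0 in shGldc. Mrps11 had 28.1 FPKM in MEFs, 31.7 in iPSCs, 33.1 in mESCs, 50.9 in NTC, and 71.4 in shGldc. The pair had the same log2 ratio of 0.49 for shGldc over NTC and different ones for iPSCs over MEFs, 1.09 for Mrpl46 and 0.17 for Mrps11. Their exons overlap, and the library kit does not mark strand, so some fragments of the pair could not be told apart.

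The first comparison asked how the genes differ between MEFs and pluripotent cells. Most stood higher in the pluripotent libraries, by a moderate amount. Ratios are given as differences of log2(FPKM + 0.1), a scale that understates the change of low genes, and the background is the set of genes that reached an FPKM of 1 in either library compared. In iPSCs over MEFs, the members had a median log2 ratio of 0.70 (1.63-fold), against 0.31 for all 13032 genes. Of the 77, 63 lay above 0, against 58.4% of all genes. In mESCs over MEFs, the median was 0.72 (1.65-fold), against 0.25 for all 12840 genes, and 64 lay above 0, against 56.4%. Both sets of ratios use the same MEF library. In bulk RNA, more expression per cell and more expressing cells cannot be told apart.

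At least 2-fold higher in iPSCs than in MEFs were 24 members (31.2%), and 31.5% of all genes were, so that count is no result about the members. At least 2-fold lower was 1 member (1.299%), against 21.3% of all genes. In mESCs, 25 members (32.5%) were at least 2-fold higher, against 30.3%, and 1 was at least 2-fold lower, against 23.3%. With a 1.5-fold limit, 44 members were higher and 3 lower in iPSCs, against 42.6% and 28.0% of all genes, and 43 were higher and 1 lower in mESCs, against 40.7% and 30.3%. The members were spread less widely than other genes, with a robust SD of log2 ratios of 0.61 in iPSCs over MEFs against 1.26 for the 7591 genes in the same range of mean FPKM. In mESCs over MEFs it was 0.60 against 1.35 for 8032 genes. Here and in the later comparisons, these genes lie between the lowest and the highest member and were not matched to the members on level. Most members stand above most expressed genes, and the part of level in the narrower spread was not tested. No member lay outside the 10th to 90th percentile of all genes in any of the comparisons within a table.

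The scale of the libraries bears on these values. The FPKM of all genes summed to 466650 in MEFs, 576470 in iPSCs, and 550627 in mESCs. Centred on the median of all genes, the members' median was 0.39 in iPSCs and 0.48 in mESCs. On that scale 7 members (9.09%) were at least 2-fold higher in iPSCs, against 24.8% of all genes, and 13 (16.9%) in mESCs, against 25.4%. The share of members past 2-fold upwards was therefore near the background on the deposited scale and below it after centring. The macrophage RNA in the MEF library moves with this comparison as well. In iPSCs over MEFs the endoderm markers had a median of 3.45, with 2 of 3 at least 2-fold higher. The neuroectoderm markers had -0.63, with 1 of 4 at least 2-fold higher and 2 lower. In mESCs over MEFs the endoderm markers had -0.16, with 1 of 2 higher and 1 lower, and the neuroectoderm markers 0.66, with 2 of 4 higher and 2 lower. The part of these cells in the ratios was not tested.

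**Figure D3:**
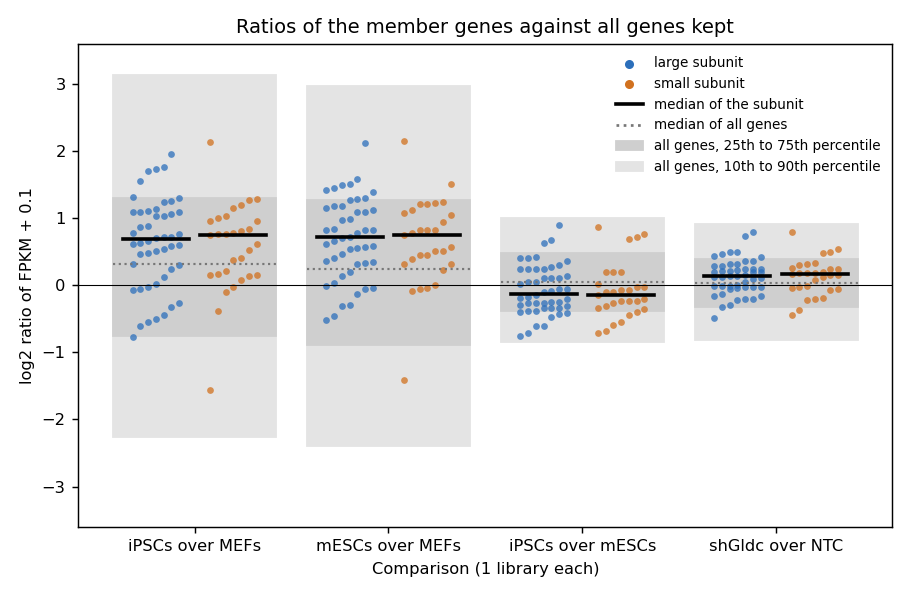
Log2 ratio of FPKM + 0.1 for each member in the 4 comparisons within a table, with 1 point per gene, large-subunit genes in blue, small-subunit genes in orange, a black bar at each subunit's median, and grey bands for the 25th to 75th and 10th to 90th percentiles of all genes. Over MEFs the subunit medians lay between 0.68 and 0.75, above the dotted medians of all genes at 0.31 and 0.25, and in the other 2 comparisons every point lay within 1 unit of 0.

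Large and small subunits had nearly the same ratios. In iPSCs over MEFs the median was 0.68 for the large subunit and 0.75 for the small one, and in mESCs over MEFs it was 0.72 and 0.75. Of the 48 large-subunit genes, 38 lay above 0 in iPSCs and 40 in mESCs, and of the 29 small-subunit genes 25 and 24. The differences between subunits were -0.07 and -0.03. Homologues of bacterial proteins had a median of 0.65 in iPSCs and 0.73 in mESCs, and proteins specific to mitochondria 0.73 and 0.75.

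Sites within the ribosome varied more, but each rests on few genes. The 5 genes of the central protuberance, where the subunits meet, had a median of 1.04 in iPSCs and 1.19 in mESCs, and all 5 lay above 0 in both. The 8 genes around the exit tunnel had 1.00 and 0.96, and the 6 around the decoding centre and messenger RNA channel 0.83 and 1.08. The 3 stalk genes had 1.06 and 0.82, and the 5 near the peptidyl transferase centre 0.78 and 0.79. Every site thus stood above the median of all genes in both comparisons.

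Single genes ranged from about 4.5-fold higher to 3-fold lower. Mrps31, a small-subunit protein specific to mitochondria, had 9.59 FPKM in MEFs, 42.5 in iPSCs, 43.1 in mESCs, 41.95 in NTC, and 40.2 in shGldc. The 4 pluripotent libraries lay within a narrow band, and MEFs stood alone below it, with log2 ratios of 2.14 in iPSCs (4.44-fold) and 2.16 in mESCs (4.50-fold), the highest of all members in both. No other annotated gene overlaps its exons. Mrpl15, the homologue of bacterial L15, had 11.2 FPKM in MEFs, 37.4 in iPSCs, 48.9 in mESCs, 41.7 in NTC, and 37.3 in shGldc. Its log2 ratios were 1.74 and 2.12, and again only MEFs were low.

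Other members were high in both pluripotent libraries but not equally. Mrpl38, a protein of the central protuberance, had 44.5 FPKM in MEFs, 173.6 in iPSCs, 108.0 in mESCs, 112.2 in NTC, and 119.5 in shGldc. It stood 3.90-fold above MEFs in iPSCs and 2.43-fold in mESCs. Mrpl45, which lies at the tunnel exit and ties the ribosome to the inner membrane, had 18.4 FPKM in MEFs, 60.6 in iPSCs, 50.9 in mESCs, 72.5 in NTC, and 74.7 in shGldc. Mrpl49, specific to mitochondria, had 17.1 FPKM in MEFs, 58.2 in iPSCs, 45.1 in mESCs, 48.9 in NTC, and 67.4 in shGldc. For both genes MEFs held the lowest value by a wide margin. Mrpl1 followed at a log2 ratio of 1.56 in iPSCs and 1.15 in mESCs, from the lowest level of any member. In mESCs the next members were Mrpl42 (1.59), Mrps5 (1.52), Mrpl11 (1.51), and Mrpl24 (1.49). Of the 77 genes, 18 (23.4%) were at least 2-fold higher in both pluripotent libraries, against 23.8% of 12574 genes kept in both comparisons, and 31 (40.3%) in at least 1, against 34.6%.

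Mrps6 went the other way. The homologue of bacterial S6 had 104.6 FPKM in MEFs, 35.5 in iPSCs, 39.2 in mESCs, 42.9 in NTC, and 53.1 in shGldc. It was the only member at least 2-fold lower, with log2 ratios of -1.56 in iPSCs and -1.41 in mESCs, 2.95-fold and 2.67-fold below MEFs. Exons of Mrps6 overlap those of Slc5a3, a transporter of inositol, which had 3.14 FPKM in MEFs and between 0.450 and 0.609 in the other libraries. Slc5a3 thus differed in the same direction at far lower levels. Exons of Gm49711 overlap those of Mrps6 too, and other genes, above all Gm49711, share 17.3% of the 50-nt stretches of Mrps6. Whether fragments were assigned to the right gene was not tested. Below 0 in both pluripotent libraries were 10 members in all (12.99%), against 37.7% of genes, the others being Mrpl13, Mrpl20, Mrpl3, Mrpl30, Mrpl32, Mrpl52, Mrpl54, Mrps15, and Mrps26. Of these, Mrpl30 was lowest, with log2 ratios of -0.77 in iPSCs and -0.51 in mESCs. Mrpl52, the most abundant member in MEFs, had -0.51 and -0.45, and Mrpl54 had -0.60 and -0.30.

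**Figure D4:**
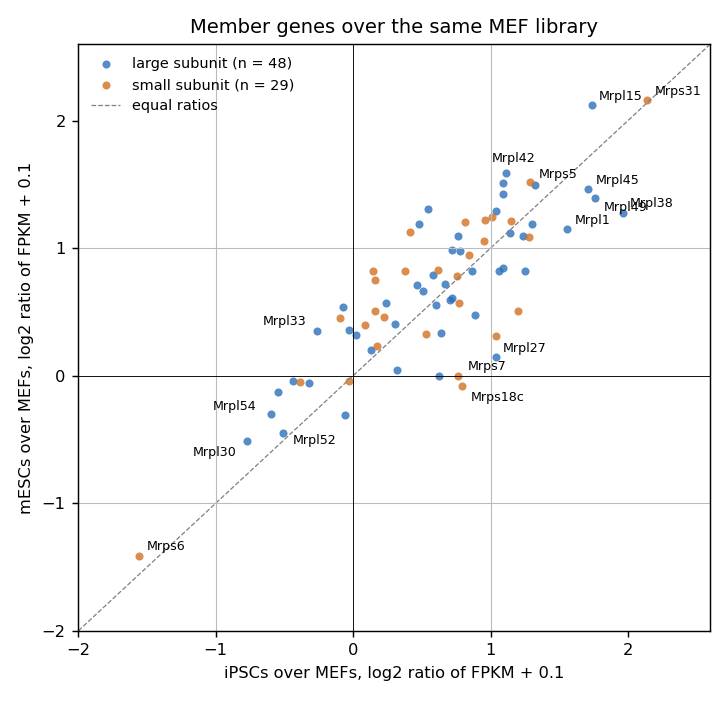
Log2 ratio of each member over MEFs in iPSCs (horizontal) and in mESCs (vertical), with 1 point per gene, large-subunit genes in blue, small-subunit genes in orange, a dashed line of equal ratios, and thin lines at 2-fold. Mrps31 (2.14 and 2.16) and Mrps6 (-1.56 and -1.41) mark the ends, and both axes use the same MEF library.

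The second comparison set the pluripotent lines against each other. The members stood slightly lower in iPSCs than in mESCs. Their median log2 ratio was -0.14 (-0.23 without the 32 members that overlap another gene), against 0.04 for all 12323 genes, and 28 of the 77 lay above 0, against 52.6% of all genes. The large subunit had a median of -0.13 and the small one -0.14, with 20 of 48 and 8 of 29 genes above 0. No member differed by 2-fold in either direction, against 10.1% of all genes that were 2-fold or more higher and 7.44% that were lower. With a 1.5-fold limit, 7 members were higher and 7 lower, against 20.9% and 16.8%. The robust SD of the members' ratios was 0.36, against 0.55 for 6575 genes of the same FPKM range.

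Homologues of bacterial proteins were the lower group here, with a median of -0.22 and 13 of 46 above 0, whereas proteins specific to mitochondria had a median of 0.00 and 15 of 30 above 0. The 3 highest members were Mrpl27, Mrps18c, and Mrps7. Mrpl27, whose product reaches into the peptidyl transferase centre, had 87.8 FPKM in iPSCs and 47.2 in mESCs, with 42.7 in MEFs, 54.3 in NTC, and 76.6 in shGldc. Its level in iPSCs stood 1.86-fold above that in mESCs, while mESCs were close to MEFs. The levels of Mrpl27 are less certain, because its exons overlap those of Eme1 and other genes share 26.9% of its 50-nt stretches. The lowest were Mrpl34 (-0.76), Mrps28 (-0.71), and Mrpl18 (-0.71). Mrpl34, the homologue of bacterial L34, had 60.1 FPKM in MEFs, 87.6 in iPSCs, 148.5 in mESCs, 238.2 in NTC, and 170.8 in shGldc, and so varied among the V6.5 libraries about as much as between the lines. Markers of other cells moved with this comparison. The fibroblast markers had a median log2 ratio of -3.54, with 6 of 9 at least 2-fold lower in iPSCs, the endoderm markers 1.99, with 3 of 3 at least 2-fold higher, and the neuroectoderm markers -1.88, with 3 of 4 at least 2-fold lower and 1 at least 2-fold higher. Of 3 macrophage markers kept, with a median of 1.13, 2 were at least 2-fold higher and Lyz2 (-3.18) was lower. Their part in the members' ratios was not tested.

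The S18 homologues differed from one another. Animal mitochondria have 3 versions of this protein, each incorporated at a site of its own. Mrps18a had 43.9 FPKM in MEFs, 67.6 in iPSCs, 77.9 in mESCs, 68.3 in NTC, and 76.2 in shGldc. Mrps18b had 50.3 FPKM in MEFs, 115.9 in iPSCs, 71.6 in mESCs, 92.9 in NTC, and 131.5 in shGldc. Mrps18c had 36.1 FPKM in MEFs, 62.4 in iPSCs, 34.1 in mESCs, 30.2 in NTC, and 32.9 in shGldc. Mrps18a was thus alike in all 4 pluripotent libraries and Mrps18b high in iPSCs and shGldc, while Mrps18c was high in iPSCs alone and in the V6.5 libraries slightly below its level in MEFs. For iPSCs over mESCs their log2 ratios were -0.20, 0.69, and 0.87. Other genes share 30.2% of the 50-nt stretches of Mrps18b and 22.9% of those of Mrps18c, and none of those of Mrps18a, so the levels of the first pair are less certain. Of the other members whose symbol and place differ, Mrps30 was above the median member, with log2 ratios over MEFs of 1.28 in iPSCs and 1.08 in mESCs, and Mrps36, no core subunit, had -0.09 and 0.45.

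The third comparison was that of Gldc knockdown. The members stood slightly higher in shGldc than in NTC. Their median log2 ratio was 0.16 (1.11-fold), but 0.091 without the 32 members that overlap another gene, against 0.04 for all 11969 genes, and 50 of 77 lay above 0, against 52.8% of all genes. The large subunit had a median of 0.14 and the small one 0.17, with 31 of 48 and 19 of 29 genes above 0. No member differed by 2-fold, against 8.97% of all genes that were 2-fold or more higher and 7.68% that were lower. With a 1.5-fold limit, 3 members were higher and none was lower, against 17.5% and 14.9%. The members' robust SD was 0.25, against 0.42 for 7516 genes of the same FPKM range. The median compares with 0.06 between NTC and untreated mESCs, libraries of the same cell line described after this comparison.

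The 3 members beyond 1.5-fold were Mrpl53, Mrps7, and Mrpl54. Mrps7, the homologue of bacterial S7 at the messenger RNA channel, had 50.5 FPKM in MEFs, 86.0 in iPSCs, 50.5 in mESCs, 89.6 in NTC, and 155.2 in shGldc. Its log2 ratio for shGldc over NTC was 0.79 (1.73-fold), and the highest value of any library was in shGldc. Exons of Gga3 and Mif4gd overlap those of Mrps7, and both were lower in shGldc than in NTC, Gga3 at 26.9 against 31.7 FPKM and Mif4gd at 26.7 against 47.2. Mrpl54, specific to mitochondria, had 93.3 FPKM in MEFs, 61.6 in iPSCs, 75.9 in mESCs, 88.7 in NTC, and 147.6 in shGldc. It was below MEFs in both pluripotent lines and highest in shGldc. Mrpl53 had 54.5 FPKM in MEFs, 68.2 in iPSCs, 56.1 in mESCs, 51.9 in NTC, and 90.02 in shGldc. Its level is uncertain, since other genes, above all Gm42688, share 82.0% of its 50-nt stretches. Next came Mrps26 (0.54), Mrps18b (0.50), Mrpl27 (0.50), and the neighbours Mrpl46 and Mrps11 (0.49 each).

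Lowest in shGldc relative to NTC were Mrpl34, Mrps12, and Mrps5. Mrpl34 had a log2 ratio of -0.48, and its values in all libraries are given above. Mrps12, the homologue of the bacterial decoding-centre protein S12, had 50.3 FPKM in MEFs, 88.5 in iPSCs, 116.2 in mESCs, 158.7 in NTC, and 116.5 in shGldc, a log2 ratio of -0.45. Mrps5, a neighbour at the messenger RNA entry, had 28.9 FPKM in MEFs, 70.7 in iPSCs, 82.9 in mESCs, 113.9 in NTC, and 88.5 in shGldc, a log2 ratio of -0.36. In all 3 genes NTC held the highest value, and shGldc lay close to or above mESCs. The genes of the decoding centre and messenger RNA channel thus had Mrps7 near the top and Mrps12 and Mrps5 near the bottom, with a median of -0.07. The 8 genes of the exit tunnel had a median of 0.22, 7 of them above 0. Other markers moved with this comparison. The endoderm markers Gata6 (8.22 FPKM against 0.462 in NTC) and Gata4 (7.84 against 2.38) were higher in shGldc, and the 10 pluripotency markers had a median of -0.64, with 1 of 10 above 0. Of 5 fibroblast markers kept, with a median of -0.35, none lay above 0 and 2 were at least 2-fold lower, Col1a1 (-2.57) and Thy1 (-2.55). Their part in the members' ratios was not tested.

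The shRNA libraries were also set beside untreated mESCs, which are the same cell line but come from a table made separately, so these ratios include any difference between the tables. In NTC over mESCs the members had a median of 0.06, or -0.025 without those that overlap another gene, against -0.06 for all 12048 genes, with no member past 2-fold, against 4.99% of all genes 2-fold or more higher and 10.3% lower. With a 1.5-fold limit, 7 members were higher and 4 lower, against 12.8% and 21.1%. The control shRNA library alone thus differed from untreated cells by up to 0.83 (Mrps7) and -0.94 (Mrpl33), as far as any member differed between shGldc and NTC. Mrpl33 had 85.6 FPKM in MEFs, 71.5 in iPSCs, 109.2 in mESCs, 56.9 in NTC, and 70.7 in shGldc. In shGldc over mESCs the median was 0.15, but 0.022 without the overlapping members, against -0.02 for all 12237 genes. At least 2-fold higher were 3 members, against 9.89% of all genes, and none was at least 2-fold lower, against 13.9%. The 3 were Mrps7 (1.62), Mrps26 (1.16), and Mrps11 (1.11). With a 1.5-fold limit, 13 were higher and 3 lower, against 19.4% and 23.9%. Markers moved here too. In NTC over mESCs the fibroblast markers had a median of -3.95, with 5 of 9 at least 2-fold lower and 1 higher, and the neuroectoderm markers -2.23. In shGldc over mESCs these lists had -2.66 and -2.63. There the endoderm markers had 2.31, with 2 of 2 higher, and the pluripotency markers -0.43, with 4 of 10 lower. Their part in the members' ratios was not tested.

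Mrps26, a small-subunit protein specific to mitochondria, had 63.2 FPKM in MEFs, 62.0 in iPSCs, 61.3 in mESCs, 94.3 in NTC, and 136.9 in shGldc. The first 3 libraries, which share a table, were nearly equal, and both libraries of the other table were higher. For Mrps26, as for Mrps7 and Mrps11, NTC lay between mESCs and shGldc.

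Other genes that the mitochondrial ribosome needs stood beside the members. The 6 mitoribosomal proteins with other symbols (Dap3, Ptcd3, Chchd1, Aurkaip1, Gadd45gip1, and Ict1) all lay above 0 over MEFs, with medians of 0.82 in iPSCs and 0.85 in mESCs. Dap3, a small-subunit protein, had 17.1 FPKM in MEFs, 45.1 in iPSCs, 39.8 in mESCs, 43.2 in NTC, and 38.3 in shGldc. Gadd45gip1, a large-subunit protein, had 23.7 FPKM in MEFs, 55.1 in iPSCs, 91.6 in mESCs, 110.3 in NTC, and 132.0 in shGldc. These were the members of the list with the highest ratio in iPSCs and in mESCs. In shGldc over NTC the median of the 6 was 0.09, and none passed 2-fold, against 8.97% of all genes higher and 7.68% lower, so with 6 genes that count is no result about the list.

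Of the factors that assemble the mitochondrial ribosome, 26 were kept, and their medians over MEFs were 0.80 in iPSCs and 0.78 in mESCs. At least 2-fold higher were 11 of the 26 in iPSCs, against 31.5% of all genes, and 10 in mESCs, against 30.3%. None was at least 2-fold lower, against 21.3% and 23.3%. Gtpbp10, a GTPase of large-subunit assembly, had the highest ratio in iPSCs (1.99), with 2.49 FPKM in MEFs, 10.2 in iPSCs, 9.04 in mESCs, 3.37 in NTC, and 1.67 in shGldc. It was also the lowest of the list in shGldc over NTC (-0.97). Rpusd3, a pseudouridine synthase, was highest in mESCs over MEFs (2.29) and in shGldc over NTC (0.99). In shGldc over NTC the median of the 26 was 0.04, and none passed 2-fold on the log2(FPKM + 0.1) scale, against the same 8.97% and 7.68% of all genes, although the FPKM of Gtpbp10 in shGldc was 49.5% of that in NTC.

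The translation factors stood less far above MEFs than the members did. The medians of 16 genes were 0.40 in iPSCs and 0.60 in mESCs, with 3 and 5 at least 2-fold higher, against the same 31.5% and 30.3% of all genes, among them the release factor Mtrf1 (1.53 in iPSCs) and the recycling factor Gfm2 (1.72 in mESCs). The 20 genes of mitochondrial aminoacyl-tRNA synthesis, which charge transfer RNAs, had 0.89 and 0.85, and in both libraries 9 of the 20 were 2-fold or more above MEFs, against 31.5% and 30.3% of all genes, and 1 was 2-fold or more below, against 21.3% and 23.3%. The lower one was Wars2, the tryptophan enzyme, with log2 ratios of -1.27 and -1.83. This list also held members far apart in shGldc over NTC. Pars2, the proline enzyme, had 1.33 FPKM in MEFs, 5.87 in iPSCs, 4.16 in mESCs, 5.84 in NTC, and 0.487 in shGldc, a log2 ratio of -3.34, and Wars2 had 0.618 FPKM in NTC and 1.86 in shGldc, a log2 ratio of 1.44. The list's median in this comparison was 0.06.

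Genes of mitochondrial DNA transcription and replication stood furthest above MEFs, with medians over 12 genes of 1.199 in iPSCs and 1.31 in mESCs. The exonuclease Mgme1 led with 2.03 FPKM in MEFs, 13.8 in iPSCs, and 14.4 in mESCs, and the transcription factor Tfb2m was lowest, at -0.38 and -0.55. In shGldc over NTC the 12 genes had a median of 0.06, with Mterf2 at 1.197. For comparison, 76 cytosolic ribosomal protein genes had medians over MEFs of 0.89 in iPSCs and 0.63 in mESCs, and 82 genes of the respiratory chain and ATP synthase 0.74 and 0.55. For iPSCs over mESCs the cytosolic ribosomal proteins had 0.29 and the mitochondrial ones -0.14, and for NTC over mESCs -0.23 and 0.06. On the deposited scale, the lists of nuclear genes for mitochondrial translation and the cytosolic ribosomal proteins had medians over MEFs above those of all genes. All genes had 0.31 in iPSCs and 0.25 in mESCs, and in iPSCs the translation factors, at 0.40, lay closest to them. Unlike the members, the other lists were not centred. The cytosolic and mitochondrial ribosomal genes had medians of opposite sign in iPSCs over mESCs and in NTC over mESCs. Without those that overlap another gene, the members' median for NTC over mESCs was -0.03.

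**Figure D5:**
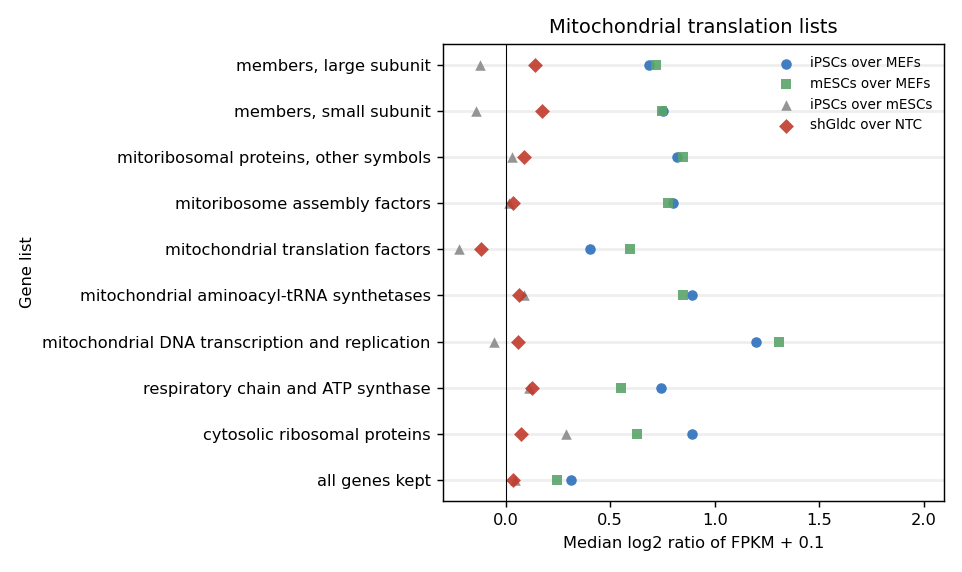
Median log2 ratio of FPKM + 0.1 for the members by subunit, for lists of other genes of mitochondrial translation, for the respiratory chain, for cytosolic ribosomal proteins, and for all genes kept, with 1 symbol per comparison. Over MEFs (blue and green) every list lies to the right of all genes, from 0.40 for translation factors to 1.31 for mitochondrial DNA genes, and in shGldc over NTC (red) every list lies between -0.12 and 0.17.

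The factors named for promoters of such genes were measured in the same libraries. Nrf1 had 5.96 FPKM in MEFs, 11.3 in iPSCs, 10.98 in mESCs, 14.1 in NTC, and 13.8 in shGldc. Gabpa, the DNA-binding part of GABP, had 6.79 FPKM in MEFs, 12.2 in iPSCs, 9.88 in mESCs, 10.3 in NTC, and 8.83 in shGldc. Yy1 had 27.2 FPKM in MEFs, 22.4 in iPSCs, 30.8 in mESCs, 38.0 in NTC, and 37.9 in shGldc. Nrf1 and Gabpa were lowest in MEFs, as most members were, and Yy1 was lowest in iPSCs. The Myc family changed places, with Myc at 31.3 FPKM in MEFs, 4.61 in iPSCs, 2.11 in mESCs, 19.1 in NTC, and 8.30 in shGldc. Mycn had 0.709 FPKM in MEFs, 24.3 in iPSCs, 35.3 in mESCs, 48.5 in NTC, and 29.0 in shGldc. The coactivator Ppargc1b had 2.52 FPKM in NTC and 0.745 in shGldc. In shGldc over NTC the list of 9 had a median of -0.30, with 1 gene above 0, while the members had 0.16.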

How the data were processed

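The authors extracted total RNA with TRIzol, prepared libraries with an NEBNext Ultra kit, which does not mark strand, and sequenced them on an Illumina HiSeq instrument. Reads were mapped to mm10 with TopHat2 (2.1.0), transcripts were assembled with StringTie (1.3.4d), and gene levels were computed with Ballgown. The annotation and the strand setting are not given in the sources used here. The values deposited by the authors are FPKM, in 2 tables produced apart from each other, one with MEFs, iPSCs, and mESCs and one with NTC and shGldc.

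From these, log2(FPKM + 0.1) ratios were computed for genes with an FPKM of 1 or more in either library compared, and a gene was counted as higher or lower at 2-fold. Cross-table ratios are descriptions only. The members and the gene lists were chosen with earlier results of these data known, and the cytosolic ribosomal and respiratory chain lists, which were taken by symbol pattern, after the tables had been examined. The genes named were the 8 highest and 8 lowest members in each within-table comparison or a part of these, every member past 2-fold where the text gives it, the 3 highest and lowest levels of each subunit, the S18 homologues, members whose symbol and place differ, and the ends of each list. Overlaps, shared 50-nt stretches, and neighbours were read from the mm10 annotation and promoters from RefSeq (GRCm38.p6). Depth was read from the steps between low values of genes with 1 transcript. With the halved depth for NTC and shGldc, where the depth is uncertain, and the full depth for the other libraries, the member with the fewest fragments, Mrpl41, had between 79 and 183, a counting error of at most 0.163 on the log2 scale, which covers counting only. Alternatives were another pseudocount (1 or 0.01), another filter (none or an FPKM of 5), rescaled or centred libraries, means, a 1.5-fold limit, subunits by structure, and members without overlaps. The ratio step was tested on simulated data. Python 3.11.15, numpy 2.4.6, pandas 2.3.3, and matplotlib 3.10.9 were used.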

Additional observations from a re-analysis of the deposited data

Results flagged for a closer look

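A few members lay on opposite sides of MEFs in the pluripotent libraries, which use the same MEF library as their control. The difference was not tested, since each group has 1 library, and for each gene except Mrpl33 1 of the 2 values lies within 0.1 of 0. Mrpl33 had a log2 ratio of -0.26 in iPSCs over MEFs and 0.35 in mESCs over MEFs. Mrpl14 had -0.028 and 0.36, Mrpl17 had -0.074 and 0.54, and Mrps36 had -0.094 and 0.45. In the other direction, Mrps18c had 0.79 in iPSCs and -0.084 in mESCs, Mrpl9 had 0.62 and -0.0044, and Mrps7 had 0.77 and -0.00069.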

How the results depend on the processing

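Without replicates, a median was taken to have moved when it differed by more than 0.1 on the log2 scale or changed sign, a difference or ratio between the subunits when it differed by more than 0.1 on that scale whatever its sign, a count or share when it differed by more than 1.5 times, and a single gene when it differed by more than 0.35, the SD of the members' log2 ratios for NTC over mESCs. Of 136 values of medians, counts, shares, and subunit ratios under an alternative, 109 held and 27 moved, and all 976 values of single genes held. Centring shifts every gene by the same amount, at most 0.31 (iPSCs over MEFs), and rescaling by a similar amount, both below 0.35. No single gene could therefore count as moved under these settings, so the count for single genes is no test of stability. Rescaling to the same FPKM sum moved the median over MEFs to 0.40 in iPSCs and 0.49 in mESCs, with 7 and 13 members at least 2-fold higher and, in iPSCs, 2 at least 2-fold lower. Centring on the median of all genes gave 0.39 and 0.48, with the same counts of 7, 13, and 2. By construction, a 1.5-fold limit gave more members. These were 44 higher and 3 lower in iPSCs over MEFs, 43 higher in mESCs over MEFs, 7 higher and 7 lower in iPSCs over mESCs, 3 higher in shGldc over NTC, 7 higher and 4 lower in NTC over mESCs, and 13 higher and 3 lower in shGldc over mESCs. Without the 32 members that overlap another gene, the median was -0.025 in NTC over mESCs and 0.022 in shGldc over mESCs. The difference between large and small subunit was 0.063 by means in iPSCs over MEFs, -0.0357 by means in shGldc over mESCs, and 0.0934 by structure in mESCs over MEFs, and the ratio of their median FPKM by structure was 1.14 in MEFs and 1.03 in mESCs. Smaller shifts changed the sign of the difference in mESCs over MEFs by means (-0.030 to 0.045), in iPSCs over mESCs by structure (0.018 to -0.0021), and in NTC over mESCs by structure (0.051 to -0.0024) and by means (0.051 to -0.035), and took the ratio in NTC from 0.966 to 1.02 by structure. The cause was not tested. No paired analysis was possible because each group has 1 library, and for the same reason no replicate could be left out. The order of the subunits thus depends on their placement and on the summary used, whereas the medians over MEFs stayed above 0 under every alternative run.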
